A study of Homo sapiens with 29 samples.

Results

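The transcripts of 10 genes that encode matrix metalloproteinases (MMPs) or their tissue inhibitors (TIMPs) were followed in growing, senescent and SMARCA4-depleted senescent human lung fibroblasts. The genes were taken by symbol from a table of 28266 genes, by a rule that names no measured value but was written with earlier results of these data known. They were MMP1, MMP3, MMP10 and MMP12, which lie next to one another in a cluster of MMP genes on the long arm of chromosome 11 (band 11q22), and MMP2, MMP9, MMP14, TIMP1, TIMP2 and TIMP3, which lie elsewhere. The question addressed was whether the genes of the cluster differed from those elsewhere across the 3 groups of libraries. All 10 genes passed the filter on low counts, which left 13136 genes tested, but MMP9, MMP10 and MMP12 passed it through the senescent groups, since no DMSO_siNT library held more than 3, 5 and 8 counts of them, respectively.

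MMPs are zinc-dependent endopeptidases that are mostly secreted as inactive precursors and together cleave nearly all proteins of the extracellular matrix. TIMPs bind the active site of MMPs and block them, so that proteolysis outside the cell follows from the balance between both families. Interstitial collagenase and stromelysins are among the secreted factors by which senescent fibroblasts are best known to alter the tissue around them.

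The cells were IMR90 ER:RAS, an established line of human lung fibroblasts in which a retroviral vector, pLNC ER:RAS-neo, expresses inducible RASG12V as a fusion named ER:RAS. All groups carried the fusion, and the labels give day 7 for every sample. Cells of DMSO_siNT received the solvent dimethyl sulfoxide (DMSO) and non-targeting siRNA (siNT) and kept growing, cells of 4OHT_siNT received 4-hydroxytamoxifen (4OHT), which activates the fusion and induces senescence, with siNT, and cells of 4OHT_siSMARCA4 received 4OHT with siRNA against SMARCA4, the ATPase of the SWI/SNF chromatin remodelling complex. Each group had 6 libraries, made with siRNAs numbered 2 and 4. A number shared by siNT and SMARCA4 siRNA stands for different siRNAs and does not pair them. The labels also give a set, written as a number with the letters V or VM, whose meaning is not stated. Because all libraries came from 1 line, p-values measured only the spread between these samples, which may be technical. No arm of growing cells with SMARCA4 siRNA was analysed here.

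Total counts ranged from 9657309 to 18039313 per library, so that 1 count stood for 0.0561 to 0.120 counts-per-million (CPM). The SMARCA4 transcript lay at 70.4 to 141 CPM in 4OHT_siSMARCA4 and at 275 to 330 CPM in 4OHT_siNT. A DMSO_siNT library, 4-2V (siRNA 4, set 2V), stood apart from the others of its group for several of the genes, and results that rest on it are given with and without it. It also differed as a whole, with the lowest total counts, 9657309, and the most genes detected. These were 17915, against 15993 to 16888 in the other libraries, and why it differed was not tested. All 4OHT_siNT libraries came from VM sets, whereas the other groups mixed V and VM. One library of 4OHT_siSMARCA4 with siRNA 2 had a set name with the letters VM that no label matched. It is called unlabelled and was not counted among the VM libraries unless stated. All 8 fibroblast markers examined were above 3 counts in every group, and their summed level was 15091 to 39661 CPM in DMSO_siNT, 19770 to 31355 CPM in 4OHT_siNT and 10682 to 18743 CPM in 4OHT_siSMARCA4. Of these markers 4 were called lower with 4OHT, as were 28.9% of all genes tested, and 7 with SMARCA4 siRNA, as were 5.65% of all genes. Of 8 markers of macrophages and other immune cells, AIF1, CD3E and MS4A1 did not exceed 3 counts in any library. PTPRC and ITGAM exceeded 3 counts only in 4OHT_siNT, and CD68, CD14 and CSF1R did in every group. The summed level, nearly all of it CD68, was 45.9 to 60.1, 48.2 to 70.1 and 48.4 to 75.9 CPM in the same order. CD68, the only marker of this list tested, was not called with 4OHT or with SMARCA4 siRNA. Of 7 epithelial markers, CDH1 and KRT5 did not exceed 3 counts in any library, and the other 5 exceeded 3 counts in every group. Of the 4 tested, KRT19 (log2 fold change −5.04), CLDN4 (−1.40) and KRT8 (−0.84) were called lower with 4OHT. With SMARCA4 siRNA KRT18 (−0.51) was called lower. The summed epithelial level was 107 to 151, 65.1 to 81.9 and 35.9 to 58.2 CPM in the 3 groups. The summed level of 5 endothelial markers was 4.44 to 11.7, 9.20 to 15.6 and 8.56 to 12.3 CPM. Of the 2 tested, VWF was called higher with 4OHT (log2 fold change 1.23), as were 23.9% of all genes tested. Neither was called with SMARCA4 siRNA. The part of these markers in the results below was not tested. In bulk RNA, fewer cells that express a gene and less RNA per cell cannot be told apart.

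In GENCODE version 44 on GRCh38, MMP10 is annotated at chr11:102770502-102780628, MMP1 at chr11:102789401-102798160, MMP3 at chr11:102835801-102843609 and MMP12 at chr11:102862736-102874982. All are protein-coding, lie on the minus strand and span 104.481 kb together. Of the genes elsewhere, MMP2 is at chr16:55389700-55506691, MMP9 at chr20:46008908-46016561, MMP14 at chr14:22836560-22849041, TIMP1 at chrX:47582408-47586789 and TIMP3 at chr22:32801705-32863041, all on the plus strand, and TIMP2 is at chr17:78852977-78925387 on the minus strand. The counts cover exons and carry no coordinates of their own.

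Promoter sequences of 4 of the 10 genes were held in the RefSeq table used (GRCh38.p14), those of MMP10, MMP14, TIMP1 and TIMP3. Those of 3 cluster genes and of TIMP3 are shown because the calls of these genes with SMARCA4 siRNA differed. Their responses were not tested against one another. MMP10, MMP7 and MMP8 were all called higher with 4OHT, whereas with SMARCA4 siRNA MMP10 was called higher, MMP8 lower, just under the threshold, and MMP7 was not called. TIMP3 was called lower with both. Each run is the 250 bases before the RefSeq start, in the direction of transcription, at chr11:102530748-102530997 (minus) for MMP7, chr11:102724955-102725204 (minus) for MMP8, chr11:102780629-102780878 (minus) for MMP10 and chr22:32801455-32801704 (plus) for TIMP3. Capitals mark TGANTCA, the AP-1 element with any middle base, and TATAAA, the core of the box that places transcription start.
MMP7: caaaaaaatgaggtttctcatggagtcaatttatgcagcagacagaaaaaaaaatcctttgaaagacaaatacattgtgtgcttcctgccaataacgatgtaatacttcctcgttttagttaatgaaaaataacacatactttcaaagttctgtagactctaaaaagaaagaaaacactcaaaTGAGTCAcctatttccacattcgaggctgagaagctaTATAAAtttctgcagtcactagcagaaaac
MMP8: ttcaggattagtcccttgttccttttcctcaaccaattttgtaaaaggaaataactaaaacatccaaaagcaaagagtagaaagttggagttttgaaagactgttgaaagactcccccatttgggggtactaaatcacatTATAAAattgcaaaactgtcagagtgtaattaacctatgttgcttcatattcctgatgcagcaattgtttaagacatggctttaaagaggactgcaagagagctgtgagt
MMP10: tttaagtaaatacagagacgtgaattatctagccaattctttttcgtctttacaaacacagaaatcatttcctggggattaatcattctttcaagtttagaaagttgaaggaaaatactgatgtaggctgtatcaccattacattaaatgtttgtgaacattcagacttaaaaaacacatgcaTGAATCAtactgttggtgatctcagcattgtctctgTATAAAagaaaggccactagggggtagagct
TIMP3: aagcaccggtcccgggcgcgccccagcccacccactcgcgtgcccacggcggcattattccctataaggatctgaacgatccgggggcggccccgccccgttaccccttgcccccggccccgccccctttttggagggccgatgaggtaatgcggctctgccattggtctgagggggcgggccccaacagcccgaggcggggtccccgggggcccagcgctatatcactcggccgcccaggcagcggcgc
The AP-1 element TGAGTCA or its reverse complement TGACTCA occurred in 4.2% of 35116 promoters of this length, the wider TGANTCA, which includes both and was added after the sequences were seen, in 6.57%, and TATAAA, searched on the strand of the gene, in 6.80%. MMP7 held TGAGTCA at −67 to −61 and TATAAA at −30 to −25 from the start. MMP10 held TGAATCA, a match to the wider element only, at the same −67 to −61, and TATAAA at −31 to −26. MMP8 held TATAAA further upstream, at −110 to −105. MMP20 of the same cluster, which had 0, 1 and 3 counts in the 3 groups, held the same pair, TGAATCA at −112 to −106 and TATAAA at −72 to −67. The windows of MMP27, TIMP3, MMP14 and TIMP1 held none of these letters. A match describes the sequence and is not evidence of a bound site.

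Whether 4OHT changed the transcripts was asked first, by comparing 4OHT_siNT with DMSO_siNT. All 4 genes of the cluster were higher in senescent cells, MMP3 by 136-fold and MMP10 by 169-fold. The genes elsewhere were mixed, as MMP9, MMP14 and TIMP1 were higher, TIMP2 and TIMP3 were lower and MMP2 was not called. Among the 10 genes, 7 were called higher and 2 lower at an edgeR adjusted p under 0.05. Of those called higher, MMP9, MMP10 and MMP12 passed the filter on low counts through the senescent groups. Their direction was thus largely set by the filter, which also bears on the medians below. Over all genes tested 52.8% were called, 23.9% higher and 28.9% lower. The median log2 fold change was 5.45 for the 4 cluster genes and 1.15 for the 6 elsewhere, beside −0.053 over all genes tested.

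MMP1, interstitial collagenase, cleaves fibrillar collagen. Its DMSO_siNT libraries ranged from 224 to 689 CPM with a median of 505 CPM, and its 4OHT_siNT libraries from 5902 to 7477 CPM with a median of 6847 CPM. Every senescent library lay far above every growing one. MMP1 thus rose by 3.80 ± 0.22 on the log2 scale (SE; edgeR adjusted p = 4.17e-11). MMP3, stromelysin 1, degrades proteoglycans, laminin and fibronectin and activates other MMP precursors. It lay at 2.22 to 9.08 CPM in growing cells (median 5.60 CPM) and at 675 to 812 CPM in senescent cells (median 758 CPM). The highest growing library was 4-2V, the same one that was lowest for MMP1. The log2 fold change of MMP3 was 7.09 ± 0.30 (SE; edgeR adjusted p = 9.03e-13).

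MMP10, stromelysin 2, has a substrate range close to that of MMP3. It was barely detected in growing cells, with 5, 0, 0, 1, 0 and 2 counts in the libraries 2-1V, 2-2V, 2-2VM, 4-2V, 4-2VM and 4-3VM, whereas senescent libraries ranged from 11.1 to 28.2 CPM with a median of 18.8 CPM. Summed over libraries, the scaled ratio was 183 (95% exact counting interval 92.8 to 425, 1601 against 8 counts), and the fitted log2 fold change was 7.40 ± 0.44 (SE), with an adjusted p of 7.11e-11. Of the 8 growing counts 5 lay in 2-1V, and without that library the log2 fold change was 8.38. Without set 2VM it was 6.75. MMP12, macrophage metalloelastase, degrades elastin. Its growing libraries held 3, 1, 0, 1, 8 and 5 counts in the same order, and the senescent libraries lay at 2.11 to 4.36 CPM with a median of 3.29 CPM. The ratio of summed counts was 13.7 (95% exact counting interval 8.50 to 23.4, 269 against 18 counts) and the log2 fold change 3.72 ± 0.39 (SE; edgeR adjusted p = 1.52e-07). For both genes no growing library reached the lowest senescent one. A count of 0 allows up to 3 counts, or 0.168 to 0.359 CPM depending on the library, and these intervals cover counting error only.

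Among the genes elsewhere, the gelatinases MMP2 and MMP9 cleave denatured collagen and type IV collagen of basement membranes. MMP2 ranged from 181 to 1138 CPM in growing cells (median 775 CPM) and from 902 to 1155 CPM in senescent cells (median 1009.8 CPM). The groups overlapped, and the lowest value was that of the 4-2V library. On the log2 scale MMP2 differed by 0.44 ± 0.26 (SE; adjusted p = 0.160 in edgeR), and without 4-2V by 0.24 (adjusted p = 0.0791). MMP9 was near the limit of detection throughout. It had 3 counts in the growing library 4-2V and 0 in the other 5, and 6, 13, 12, 6, 19 and 7 counts in the senescent libraries 2-1VM, 2-2VM, 2-3VM, 4-1VM, 4-2VM and 4-3VM. The ratio of summed counts was 19.2 (95% exact counting interval 6.29 to 95.8, 63 against 3 counts), with an edgeR adjusted p of 0.00106. Without 4-2V the growing libraries held no count of MMP9, and the fitted log2 fold change, which then depends on the prior count and is no bound, moved from 3.94 to 6.38 (adjusted p = 0.000297). Without set 2VM it was 3.00. With siRNA 4 alone MMP9 was not called (log2 fold change 3.03, adjusted p = 0.0567).

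MMP14, a membrane-anchored MMP that cleaves collagen at the cell surface and activates the precursor of MMP2, ranged from 284 to 1054 CPM in growing cells (median 882 CPM) and from 2583 to 3317 CPM in senescent cells (median 2754 CPM). The groups were separate, and the log2 fold change was 1.87 ± 0.22 (SE), with an adjusted p of 1.00e-06. TIMP1, a soluble inhibitor of most secreted MMPs, rose as well. Its libraries lay at 897 to 2118 CPM (median 1119.9 CPM) in growing and at 3971 to 6798 CPM (median 5499.9 CPM) in senescent cells, a log2 fold change of 2.05 ± 0.25 (SE), with an adjusted p of 1.34e-06. The highest growing library was again 4-2V, and it stayed below every senescent library.

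The other inhibitors fell. TIMP2, which also links pro-MMP2 to MMP14 at the cell surface, ranged from 704 to 1776 CPM in growing cells (median 1481 CPM) and from 936 to 1026 CPM in senescent cells (median 988 CPM). The 4-2V library, at 704 CPM, lay below every senescent library, and the other 5 growing libraries lay above every senescent one. The log2 fold change was −0.49 ± 0.15 (SE), with an adjusted p of 0.0107, and without 4-2V it was −0.62 (adjusted p = 1.24e-06). With siRNA 4 alone TIMP2 was not called (−0.25, adjusted p = 0.480), nor without set 2VM (−0.34, adjusted p = 0.189) or set 3VM (−0.50, adjusted p = 0.0579). TIMP3, which binds to the matrix and also inhibits ADAM proteases, fell from 233 to 351 CPM (median 273 CPM) to 141 to 178 CPM (median 152 CPM). No senescent library reached the lowest growing one, and the log2 fold change was −0.86 ± 0.14 (SE), with an adjusted p of 2.62e-05.

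**Figure D1:**
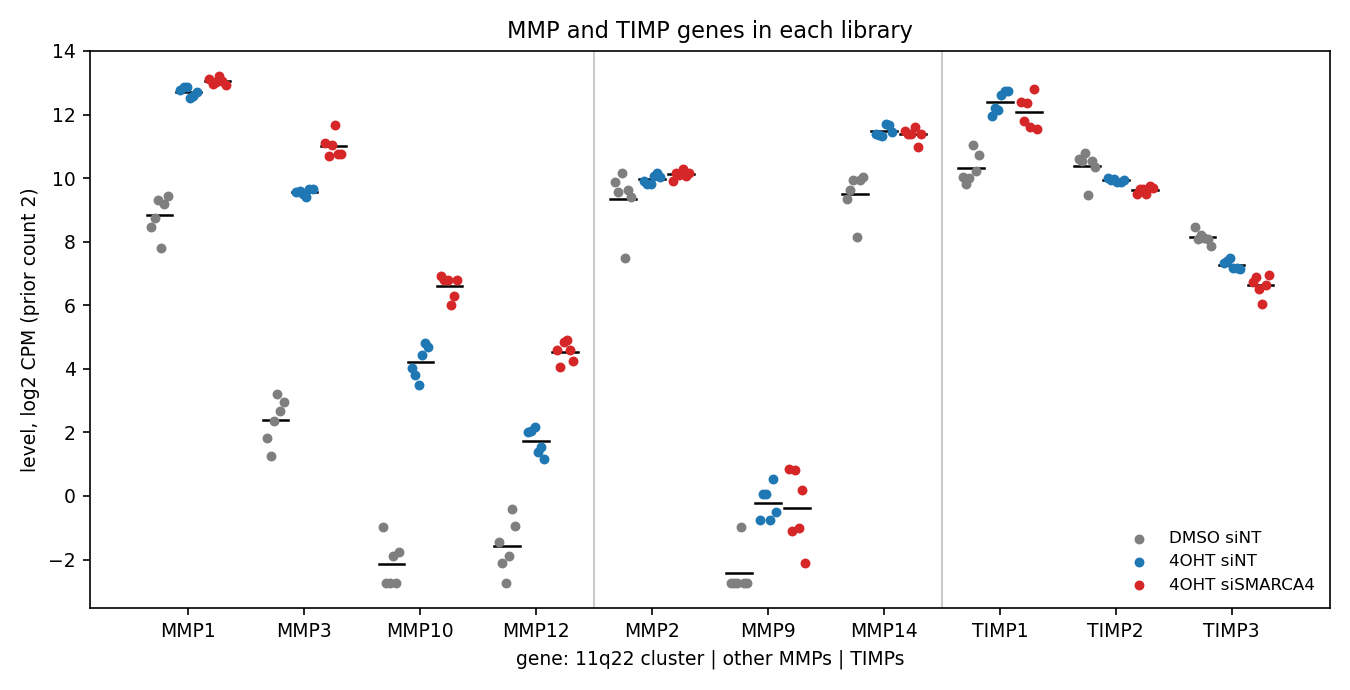
Level of each gene in each library, as log2 CPM with a prior count of 2, for DMSO_siNT (grey), 4OHT_siNT (blue) and 4OHT_siSMARCA4 (red). Points are libraries (6 per group) and black bars are group means. MMP3, MMP10 and MMP12 climb in steps over the 3 groups, TIMP3 descends in steps, and MMP9, MMP10 and MMP12 of growing cells lie at the floor set by the prior count.

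To ask how SMARCA4 depletion altered the same genes in senescent cells, 4OHT_siSMARCA4 was compared with 4OHT_siNT. MMP3, MMP10 and MMP12 rose further, by 2.79-fold, 5.13-fold and 7.24-fold. TIMP3 fell further, and MMP1, MMP2, MMP9, MMP14, TIMP1 and TIMP2 were not called. Thus 3 of the 10 genes were called higher and 1 lower, where 10.6% of all genes tested were called, 4.99% higher and 5.65% lower. The median log2 fold change was 1.92 for the 4 cluster genes and −0.19 for the 6 elsewhere, beside 0.010 over all genes tested.

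MMP12 libraries lay at 24.2, 16.3, 28.4, 29.99, 23.8 and 18.7 CPM (2-3V, 2-3VM, 4-2V, 4-2VM, 4-3V and unlabelled). All lay well above the highest 4OHT_siNT library, at 4.36 CPM, and the log2 fold change was 2.86 ± 0.26 (SE), with an adjusted p of 2.31e-06. MMP10 lay at 122, 111, 110, 64.0, 78.4 and 111 CPM in the same order, against at most 28.2 CPM in 4OHT_siNT. Its log2 fold change was 2.36 ± 0.26 (SE), with an adjusted p of 1.71e-05. The 2 lowest MMP10 libraries, 4-2VM and 4-3V, both carried siRNA 4, although the third library with siRNA 4, 4-2V, was among the high ones. MMP3 lay at 2198, 1655, 2088, 3251, 1720 and 1743 CPM, all above the 812 CPM of the highest 4OHT_siNT library, a log2 fold change of 1.48 ± 0.23 (SE), with an adjusted p of 0.000497.

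MMP1 differed from its neighbours in the cluster in the size of its change. Its 6 depleted libraries, at 7871 to 9468 CPM with a median of 8373 CPM, all lay above the 4OHT_siNT libraries, yet the log2 fold change was 0.32 ± 0.20 (SE) and did not pass the threshold (edgeR adjusted p = 0.328). It passed in a fit of only the groups compared (adjusted p = 0.0103), which does not include the spread of the growing libraries. Whether the change of MMP1 differed from those of MMP3, MMP10 and MMP12 was not tested between genes.

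Of the genes elsewhere, MMP2 ranged from 953 to 1253 CPM after depletion (log2 fold change 0.14 ± 0.26 SE, edgeR adjusted p = 0.794) and MMP14 from 2009 to 3106 CPM (−0.11 ± 0.22 SE, adjusted p = 0.807), both overlapping 4OHT_siNT. TIMP1 spread widely, at 5410, 3529, 5243, 3141, 7148 and 2989 CPM in the order given above for MMP12, with a log2 fold change of −0.27 ± 0.24 (SE), with an adjusted p of 0.543. Within VM sets, which held 2 depleted libraries, TIMP1 was called lower (−0.74, edgeR adjusted p = 0.0328). With the unlabelled library added it was −0.79 (adjusted p = 0.00534). MMP9 held 21, 4, 29, 4, 12 and 1 counts in that order, and the ratio of summed counts to 4OHT_siNT was 1.18 (95% exact counting interval 0.826 to 1.68). Its log2 fold change of 0.18 ± 0.54 (SE), with an adjusted p of 0.880, turned to −0.10 without 2-3V and to −0.16 without 4-2V of the depleted group. The direction of MMP9 was therefore not determined.

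The inhibitors TIMP2 and TIMP3 were lower in every depleted library than in any 4OHT_siNT library. TIMP2 ranged from 719.7 to 860.2 CPM with a median of 804 CPM, a log2 fold change of −0.31 ± 0.15 (SE), with an adjusted p of 0.208. The call for TIMP2 changed with the libraries fitted. Without DMSO_siNT 4-2V, a growing library in neither group, the log2 fold change of TIMP2 was −0.32 and was called (edgeR adjusted p = 0.00456). In a fit of only the groups compared it was called too (−0.31, adjusted p = 0.00268). It was also called in VM sets, with or without the unlabelled library, with siRNA 2 alone and without set 2V (adjusted p from 0.00799 to 0.0306). It was not called in 22 fits that left out a set or library. Nor was it in 7 other alternatives, among them siRNA 4 alone (−0.29, adjusted p = 0.787). All groups share 1 estimate of the spread, but why the call changed was not tested. TIMP3 lay at 105, 119, 91.1, 65.9, 99.8 and 125 CPM, a log2 fold change of −0.63 ± 0.13 (SE), with an adjusted p of 0.00513. Without set 2VM the value was −0.54 and was not called (adjusted p = 0.0576).

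Because 4OHT_siNT had no V set, the comparison was repeated within VM sets, which left 2 depleted libraries against 6 of 4OHT_siNT. The log2 fold changes there were 1.68 for MMP3, 2.16 for MMP10, 2.81 for MMP12 and −0.77 for TIMP3, with adjusted p from 1.92e-05 to 0.00727, where 21.0% of all genes were called. Each siRNA was also compared with the control of the same number, although a shared number does not pair them. With siRNA 2 the log2 fold changes were 1.32 for MMP3, 3.07 for MMP10, 2.28 for MMP12 and −0.54 for TIMP3, and with siRNA 4 they were 1.61, 1.73, 3.47 and −0.76. All 8 were called in a fit of all 18 libraries with 1 level per group and siRNA number, where 7.67% of all genes were called with siRNA 2 and 2.71% with siRNA 4. In a fit of the siRNA 4 libraries alone, which called 4 genes in all (0.0303%), MMP12 was called and MMP3 and MMP10 were not (1.60 and 1.72, both adjusted p = 0.0925), nor was TIMP3 (−0.76, adjusted p = 0.179).

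**Figure D2:**
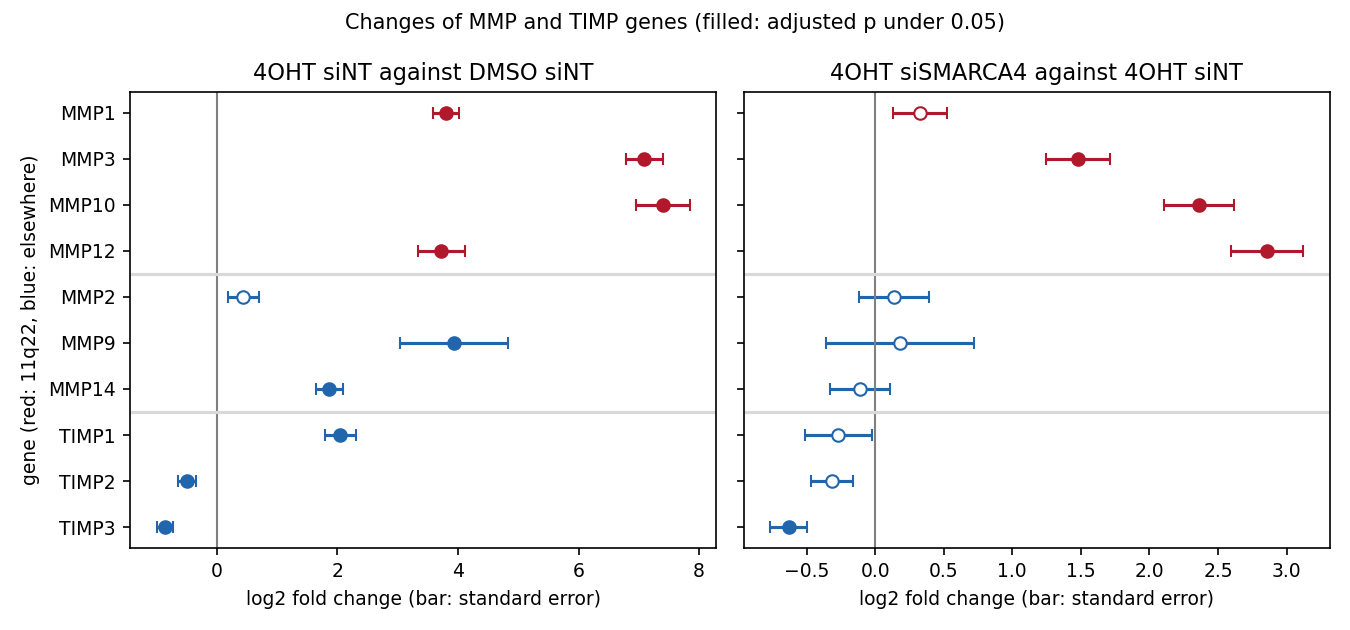
Log2 fold changes of the 10 genes between 4OHT_siNT and DMSO_siNT (left) and between 4OHT_siSMARCA4 and 4OHT_siNT (right), with standard errors. Filled points have an edgeR adjusted p under 0.05. The axes differ in range, as cluster genes (red) reach 7.40 on the left and 2.86 on the right, and genes elsewhere (blue) reach 3.94 and 0.18.

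Depleted senescent cells were also set beside growing cells, a comparison that shares libraries with both others. The log2 fold changes were 4.12 for MMP1, 8.57 for MMP3, 9.76 for MMP10, 6.58 for MMP12, 4.12 for MMP9, 1.76 for MMP14 and 1.78 for TIMP1, and −0.80 for TIMP2 and −1.49 for TIMP3. These 9 genes were called, with edgeR adjusted p from 1.16e-13 to 0.000601, where 50.5% of all genes tested were called, 23.3% higher and 27.3% lower. MMP9, MMP10 and MMP12 entered the test by being higher in the senescent groups, so their direction here was largely set by the filter. By summed counts, MMP10 was 953-fold higher than in growing cells (95% exact counting interval 483 to 2208) and MMP12 100-fold higher (63.2 to 169). The growing counts of MMP10 and MMP9 were again mostly those of single libraries, and the log2 fold change was 10.74 for MMP10 without 2-1V and 6.56 for MMP9 without 4-2V. MMP2 was at 0.57 ± 0.26 (SE; edgeR adjusted p = 0.0701). It was called without DMSO_siNT 4-2V (0.37, adjusted p = 0.00954) and without DMSO_siNT 2-2VM (0.73, adjusted p = 0.0253), the lowest and the highest growing libraries for this gene.

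To compare levels between genes, CPM was divided by the length of all annotated exons in kilobases. In growing cells TIMP1 led at 920 CPM per kb, followed by TIMP2 at 222, MMP1 at 178, MMP14 at 171, MMP2 at 159 and TIMP3 at 61.6 CPM per kb. From TIMP2 to TIMP3 the ranges of neighbours in this order overlapped. MMP3, at 3.01 CPM per kb, lay below all of them, and MMP12, MMP10 and MMP9 (0.126, 0.0589 and 0.0256 CPM per kb) overlapped with one another at the floor.

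In senescent cells the order was TIMP1 (3812 CPM per kb), MMP1 (2472), MMP14 (624), MMP3 (407), MMP2 (215), TIMP2 (158), TIMP3 (33.9), MMP10 (11.02), MMP12 (1.78) and MMP9 (0.322). No neighbours overlapped. After depletion TIMP1 (3165 CPM per kb) and MMP1 (3096 CPM per kb) overlapped, with TIMP1 above MMP1 in 3 of 6 libraries. MMP3 followed at 1138, MMP14 at 578, MMP2 at 236, TIMP2 at 127, MMP10 at 56.5, TIMP3 at 21.95, MMP12 at 12.9 and MMP9 at 0.358 CPM per kb. Between 4OHT_siNT and 4OHT_siSMARCA4, MMP3 passed MMP14 and MMP10 passed TIMP3. MMP12 approached TIMP3, which was above it in 5 of 6 libraries.

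Protease transcripts were then set against those of inhibitors. MMP1 relative to TIMP1, per kilobase, was 0.214 ± 0.0914 in growing cells, 0.688 ± 0.212 in senescent cells and 1.08 ± 0.370 after depletion (SD, n = 6), and only the senescent groups overlapped. MMP3 relative to TIMP1 was 0.00319 ± 0.000797, 0.111 ± 0.0248 and 0.407 ± 0.214 in the same order, with no overlap between groups. MMP14 relative to TIMP2, which act together on pro-MMP2, was 0.759 ± 0.208, 3.96 ± 0.577 and 4.59 ± 0.891, and here the senescent groups overlapped. These are ratios of transcripts, and protein levels were not measured in these files.

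The cluster as a whole took a growing share of the library. Its 4 genes held 0.0505% of all counts in DMSO_siNT, 0.742% in 4OHT_siNT and 1.08% in 4OHT_siSMARCA4, and all 10 genes held 0.512%, 1.78% and 2.01%. MMP1 made up 98.5% ± 1.27 of the cluster counts in growing cells, 89.6% ± 1.13 in senescent cells and 79.4% ± 3.06 after depletion (SD, n = 6), so the cluster total mostly reports MMP1. The mean log2 CPM of the cluster genes minus that of the genes elsewhere, with each gene weighted alike, was −5.67 ± 0.42 in DMSO_siNT, −1.42 ± 0.12 in 4OHT_siNT and 0.56 ± 0.24 in 4OHT_siSMARCA4 (SD, n = 6). The groups did not overlap. The level of this difference depends on MMP9, the scarcest gene elsewhere, without which it was −7.66, −3.17 and −1.17. It is a description of chosen genes, and no test was made of it.

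The genes of the cluster were also alike across libraries. Over 18 libraries, Pearson correlations of log2 CPM between pairs of cluster genes ranged from 0.895 to 0.978 (6 pairs, median 0.946). Pairs of a cluster gene and a gene elsewhere ranged from −0.939 to 0.953 (24 pairs, median 0.654). All libraries share the group differences described above, which set most of these values. Once each group mean was subtracted, the pairs of cluster genes ranged from −0.428 to 0.359 with a median of 0.010. These values pool the groups, and growing libraries held few counts of MMP10 and MMP12. In the 6 libraries of 4OHT_siSMARCA4 alone, MMP1 correlated with MMP3 at 0.892 and with MMP12 at 0.767, and MMP3 with MMP12 at 0.773, whereas MMP10 was at −0.675 with MMP1, −0.580 with MMP3 and −0.511 with MMP12. In 4OHT_siNT, MMP1 with MMP12 was at 0.786, MMP3 with MMP12 at −0.185 and MMP10 with MMP12 at −0.899. Libraries of siNT 2 and siNT 4 did not overlap for MMP1, MMP10 and MMP12 in this group. Correlations between these genes there include that difference between siNT siRNAs. The closest pairs of the 10 genes after subtraction were MMP2 with TIMP2 (0.940) and MMP2 with MMP14 (0.844). For MMP2 with TIMP2 this was carried by DMSO_siNT (0.996), which includes the 4-2V library, and the value was −0.704 in 4OHT_siNT and 0.10 in 4OHT_siSMARCA4. For MMP2 with MMP14 the values were 0.876, 0.912 and 0.287 in the 3 groups. The value in DMSO_siNT includes 4-2V, the lowest library for both genes. That in 4OHT_siNT includes the siRNA numbers, which did not overlap for either gene.

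Among the 11505 genes whose log2 CPM averaged above 1, the 3 with the profile nearest to each cluster gene over the 18 libraries were listed. For MMP1 these were CHST2 (Pearson r = 0.994), RAB3A (0.993) and ANGPTL4 (0.990). For MMP3 they were IRAK2 (0.994), PTGS2 (0.992) and BPGM (0.992), and for MMP10 they were PTGS2 (0.990), VEGFA (0.988) and PSAP (0.987). For MMP12 they were OSGIN2 (0.979), LYPLA1 (0.969) and HINT3 (0.968). PTGS2, the inducible cyclooxygenase, was the gene listed for both stromelysins, and its level was 2.20, 230 and 700.0 CPM on average in DMSO_siNT, 4OHT_siNT and 4OHT_siSMARCA4. OSGIN2 lay at 17.7, 53.8 and 140.2 CPM. Likeness of profiles over these groups says nothing of shared control.

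The rest of 11q22 was examined to see whether the changes reached beyond the 4 genes. The cluster holds 9 MMP genes over 435.225 kb, in the order MMP7, MMP20, MMP27, MMP8, MMP10, MMP1, MMP3, MMP12 and MMP13. MMP7, matrilysin, had 1 count in all growing libraries together and 186 in the senescent ones, a ratio of 170 (95% exact counting interval 30.2 to 6764). MMP7 and MMP8, like MMP9, MMP10 and MMP12, passed the filter on low counts through senescent libraries, so that they entered the test by being higher there. After depletion MMP7 was at 2.35 CPM, against 2.24 CPM in 4OHT_siNT (log2 fold change 0.08 ± 0.36 SE, edgeR adjusted p = 0.926). MMP8, neutrophil collagenase, went from 15 to 94 summed counts with 4OHT (ratio 5.74, 95% exact counting interval 3.31 to 10.7). It then fell to 44 counts after depletion (ratio 0.489, interval 0.334 to 0.706; log2 fold change −1.06 ± 0.34 SE, edgeR adjusted p = 0.04999, just under the threshold). MMP13, with 4, 9 and 6 counts per group, MMP20, with 0, 1 and 3, and MMP27, with none, were too low to test. Of the 6 cluster genes tested, MMP3, MMP10 and MMP12 were thus called higher with depletion, MMP8 lower, and MMP1 and MMP7 were not called.

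Of 18 genes around the cluster that encode no MMP, not counting WTAPP1 (described below), 13 were tested. With 4OHT 2 were higher, 6 lower and 5 not called, where 23.9% of all genes tested were higher and 28.9% lower, with a median log2 fold change of −0.21. The largest changes were those of PDGFD (−2.59), a platelet-derived growth factor, CASP1 (−2.56), the inflammatory caspase, CEP126 (−2.15), GRIA4 (−1.98), BIRC3 (1.55) and TRPC6 (−1.33), and CASP4 was the other gene called higher (1.21). With depletion 3 were called higher (4.99% of all genes), none lower (5.65%) and 10 were not called, with a median of 0.18. They were BIRC3, an inhibitor of apoptosis, which rose by 1.86 ± 0.19 on the log2 scale (SE; edgeR adjusted p = 7.30e-06) from 19.2 to 69.7 CPM, its neighbour BIRC2 (0.68 ± 0.15, adjusted p = 0.00707) and TMEM123 (0.42 ± 0.13, adjusted p = 0.0419). These are the 3 genes next to MMP7 on the side away from MMP20, and BIRC2 and TMEM123 are named after their values were seen. On the other side, from DCUN1D5 to GRIA4, none of the 6 genes tested was called with depletion.

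**Figure D3:**
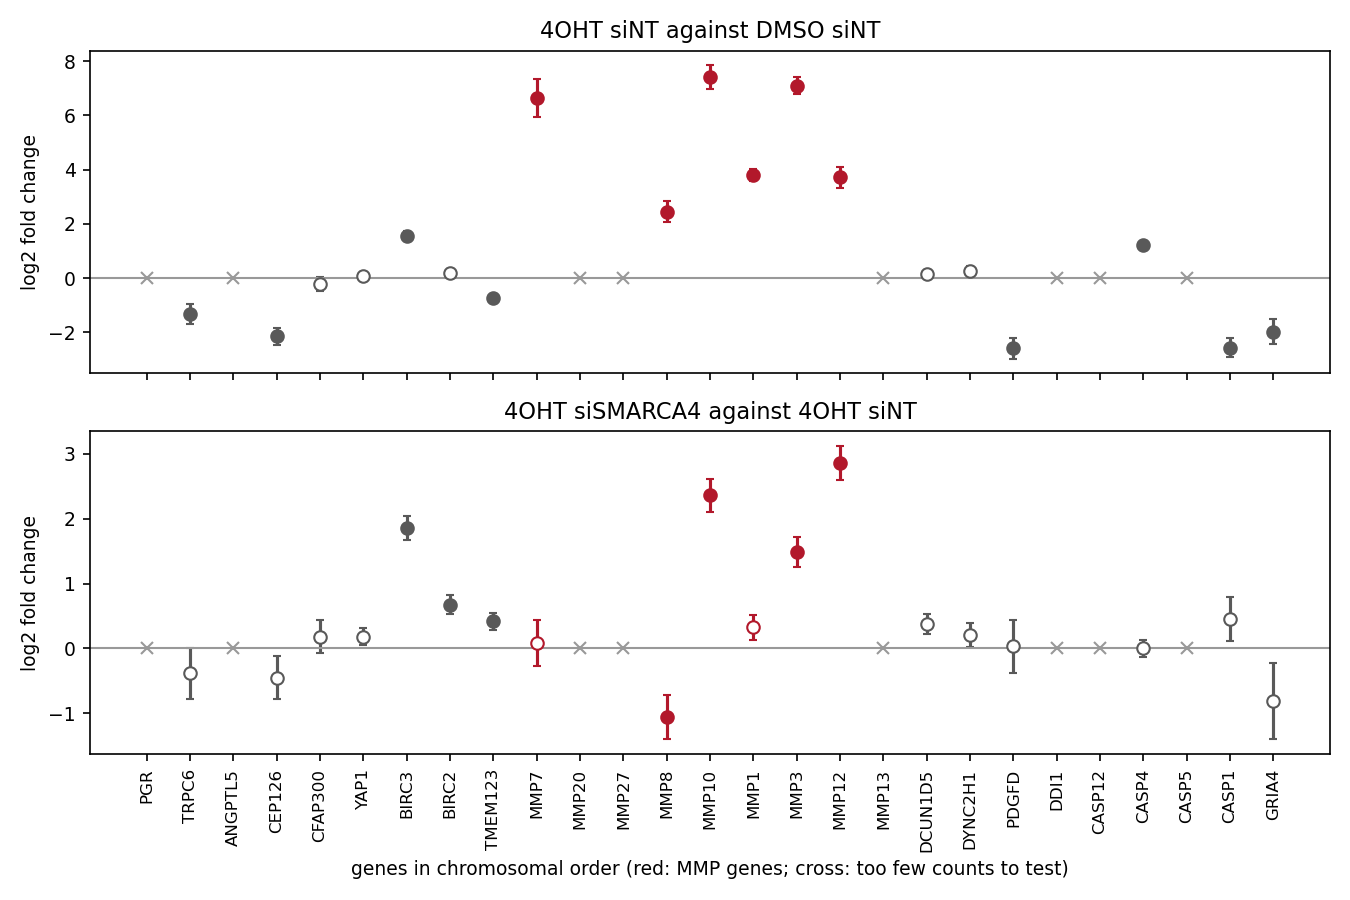
Log2 fold changes of the MMP genes (red) and their neighbours (grey) in chromosomal order at 11q22, between 4OHT_siNT and DMSO_siNT (top) and between 4OHT_siSMARCA4 and 4OHT_siNT (bottom), with standard errors. Filled points have an edgeR adjusted p under 0.05, and crosses on the zero line mark genes too low to test, which have no value. In the upper panel every MMP gene tested is above 2, whereas the neighbours shown lie between −2.59 and 1.55. MMP7, MMP8, MMP10 and MMP12 entered the test by being higher in senescent libraries, so their direction there was largely set by the filter. WTAPP1, which overlaps MMP1 and MMP3, is not shown, and its log2 fold change with 4OHT was 3.76. In the lower panel MMP10, MMP3, MMP12 and BIRC3 stand out.

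Other MMP genes outside the cluster, with TIMP4, formed a list of 12, of which 7 were tested. With 4OHT, MMP15 (1.57 ± 0.14), a membrane-type MMP, and MMP11 were higher, TIMP4 (−1.28 ± 0.29), MMP19 (−1.25 ± 0.14) and MMP24 (−1.19 ± 0.39) were lower, and 2 were not called (log2 fold change ± SE, median of the list 0.03), where 52.8% of all genes tested were called. With depletion TIMP4 was lower (log2 fold change −1.50 ± 0.37 SE, edgeR adjusted p = 0.0132), from 0.653 to 0.218 CPM, and 6 were not called, where 10.6% of all genes were. Both TIMP4 levels were near the floor, as 3 counts stood for 0.168 to 0.359 CPM depending on the library.

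Genes that activate MMPs or restrain them formed a list of 11, of which 10 were tested. With 4OHT 7 were higher, 1 lower and 2 not called, where 23.9% of all genes tested were higher and 28.9% lower, with a median log2 fold change of 0.84. The largest were TFPI2 (3.81 ± 0.20 SE), a serine protease inhibitor of the matrix, PLAT (3.08 ± 0.23 SE) and PLAU (2.36 ± 0.15 SE), the plasminogen activators, which generate plasmin, an activator of MMP precursors. RECK, a membrane-anchored inhibitor of MMPs, fell by 2.06 ± 0.12 on the log2 scale (SE; edgeR adjusted p = 2.87e-11), from 132 to 31.5 CPM. With depletion SERPINE2, an inhibitor of plasminogen activators, was higher (0.66 ± 0.16 SE, adjusted p = 0.0123), PLAT (−0.77 ± 0.21 SE, adjusted p = 0.0248) and A2M, a plasma inhibitor that traps proteases (−2.07 ± 0.54 SE, adjusted p = 0.0186), were lower, and 7 were not called (median −0.24), where 10.6% of all genes were called.

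ADAM and ADAMTS proteases, which TIMPs also inhibit, formed a list of 11, of which 10 were tested. With 4OHT 3 were higher, 5 lower and 2 not called (median log2 fold change −0.23), where 23.9% of all genes tested were higher and 28.9% lower. ADAM19 (3.26 ± 0.40 SE), ADAMTS4 (2.72 ± 0.29 SE), an aggrecanase, and ADAM12 (1.85 ± 0.20 SE) were those higher, and ADAM33 fell the most (−1.44 ± 0.23 SE). With depletion ADAMTS5, another aggrecanase, rose by 1.09 ± 0.19 on the log2 scale (SE; edgeR adjusted p = 0.00118) from 6.49 to 13.8 CPM, ADAM33 and ADAMTS1 were lower and 7 were not called (median −0.38), where 10.6% of all genes were called.

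Differences inside a group were examined by siRNA number and by set letters. Between the siRNA numbers of 4OHT_siNT, MMP10 was lower with siRNA 2 (16.2, 13.7 and 11.1 CPM) than with siRNA 4 (21.4, 28.2 and 25.7 CPM). MMP12 had the opposite order, at 3.86, 3.94 and 4.36 CPM with siRNA 2 and 2.45, 2.73 and 2.11 CPM with siRNA 4. TIMP1 was at 3971, 4758 and 4519 CPM with siRNA 2 and 6242, 6786 and 6798 CPM with siRNA 4. The numbers did not overlap for these 3 genes, nor for MMP1, MMP2, MMP14 and TIMP3. The share of all genes without overlap was not counted, so nothing particular to these genes follows from the separation. None of the 10 genes was called in this group by edgeR (lowest adjusted p = 0.241, 3 at an unadjusted p under 0.05), where 0.0732% of all genes were. Without DMSO_siNT 4-2V, MMP10 was called (adjusted p = 0.0337), where 4.24% of all genes were.

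In DMSO_siNT none of the 10 genes was called between siRNA numbers (5 at an unadjusted p under 0.05, lowest adjusted p = 0.0625 for MMP3), where 0.0512% of all genes were, and in 4OHT_siSMARCA4 none was (1 at an unadjusted p under 0.05, TIMP3), where 0.00732% were. The change with depletion was larger with siRNA 2 for MMP10, by 1.34 on the log2 scale, and larger with siRNA 4 for MMP12, by 1.19, but neither difference was called (edgeR adjusted p = 0.377 and 0.382), where 0.0146% of all genes were. Without DMSO_siNT 4-2V that of MMP10 was called (adjusted p = 0.0489), where 0.730% of all genes were. Both differences also hold the difference between the siNT siRNAs, which are not those of the depleted cells. With siNT 2 and siNT 4, 4OHT_siNT means were 13.7 and 25.1 CPM for MMP10 and 4.05 and 2.43 CPM for MMP12. The response to 4OHT differed between siRNA numbers for none of the 10 genes (2 at an unadjusted p under 0.05, lowest adjusted p = 0.102 for MMP12) and for 0% of all genes. Without 4-2V it differed for 0.759% of all genes and still for none of the 10 (4 at an unadjusted p under 0.05, lowest adjusted p = 0.0542). The difference of 4OHT_siSMARCA4 from DMSO_siNT differed between set letters for none of the 10 (1 at an unadjusted p under 0.05, MMP1, adjusted p = 0.366), where 0.0864% of all genes did.

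Between set letters, MMP1 and MMP14 were higher in VM than in V libraries of DMSO_siNT, by 0.93 and 0.82 on the log2 scale, and neither was called (edgeR adjusted p = 0.0594 and 0.182), where 0.324% of all genes were. These were the 2 of the 10 genes with an unadjusted p under 0.05. Without 4-2V, MMP1 was called (adjusted p = 0.0265), where 0.862% of all genes were. In 4OHT_siSMARCA4, TIMP1 was at 5243 to 7148 CPM in V libraries and at 3141 and 3529 CPM in VM libraries, and MMP9 was at 0.990 to 1.65 and at 0.319 and 0.346 CPM. The unlabelled library, whose own name carries the letters VM, was at 2989 and 0.0808 CPM, on the side of the VM libraries. Neither gene was called (adjusted p = 0.518 and 0.399), where 0.101% of all genes were, and they were the 2 with an unadjusted p under 0.05.

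**Figure D4:**
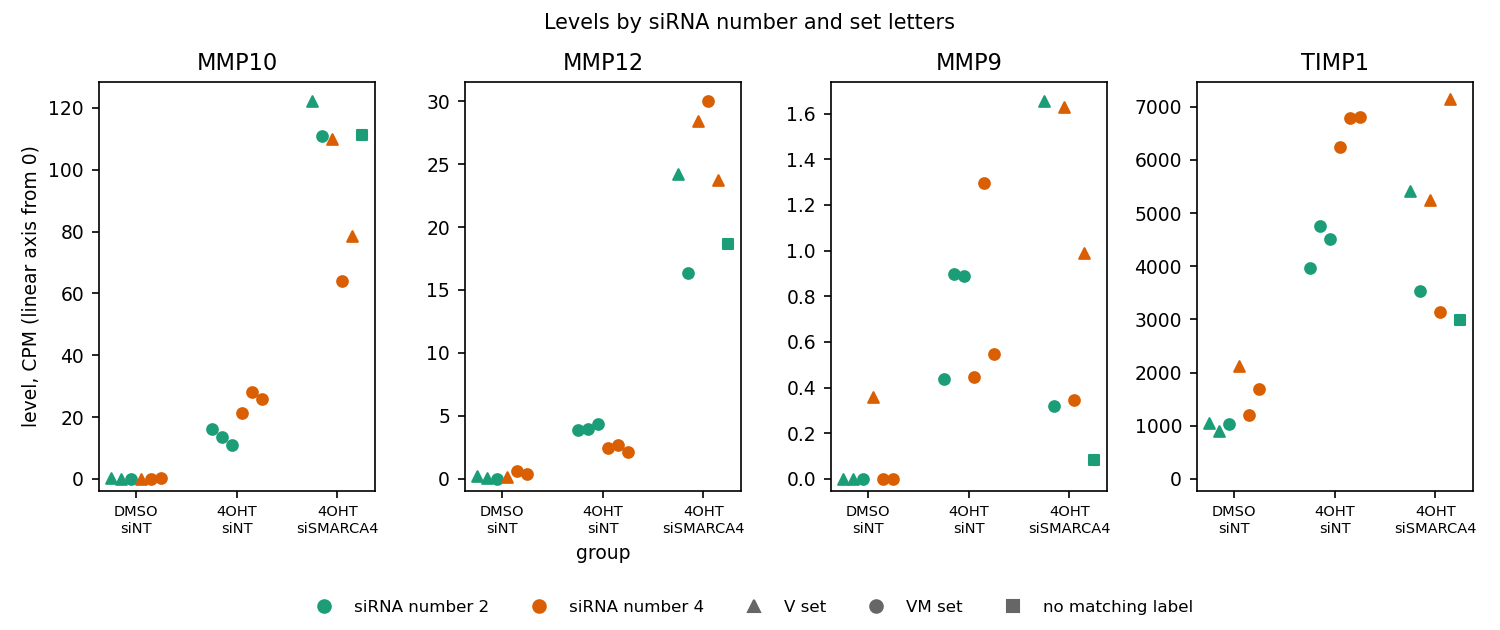
CPM of MMP10, MMP12, MMP9 and TIMP1 in each library on linear axes from 0, by group, siRNA number (colour) and set letters (triangle V, circle VM, square unlabelled). In 4OHT_siNT the siRNA numbers are separate for MMP10, MMP12 and TIMP1, and in 4OHT_siSMARCA4 the V libraries lie above the others for MMP9 and TIMP1.

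Reads could be shared between some of the genes and others. An annotated transcript on the opposite strand, WTAPP1, overlaps 223 exonic bases of MMP1 (8.14%) and 32 of MMP3 (1.73%). WTAPP1 itself was at 4.51 ± 3.81 CPM in growing, 62.5 CPM (10.3 to 115) in senescent and 69.5 ± 24.1 CPM in depleted cells (SD, n = 6), far below MMP1 in each group. In growing cells it was near the level of MMP3. The log2 fold change of WTAPP1 was 3.76 ± 0.62 with 4OHT (SE; edgeR adjusted p = 4.17e-05) and 0.15 ± 0.53 with depletion (adjusted p = 0.900). Of the exonic bases of MMP9, 18.4% overlap SLC12A5-AS1 on the opposite strand, which held 0, 1 and 4 counts per group. Libraries were strand-specific, but whether strand was used in counting is not given in the sources used here, so reads of these pairs may not be told apart. MMP3 and MMP10 shared 25 stretches of 72 bases, the read length, or 1.35% of those in MMP3 and 1.44% of those in MMP10. MMP2 shared 105 such stretches (2.21%) with ENSG00000279030 and TIMP2 153 (2.39%) with CEP295NL, which overlap them on the same strand. CEP295NL held 18, 12 and 8 counts per group, and ENSG00000279030 is not analysed here.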

How the data were processed

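RNA from 18 libraries of IMR90 ER:RAS cells, 6 in each of 3 groups, was analysed. The deposited table held unnormalized counts for each gene, in 36 columns, as the authors gave 2 sequencing lanes of each library. Per the labels and the methods of the study, RNA was polyA-enriched, made into strand-specific libraries and read as single ends. The submitters' processing notes name STAR 2.7.8a, DESeq2 1.36.0 and build hg38. The counting program, the annotation and the use of strand in counting are not given in the sources used here.

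Lanes were summed, since the lanes of a library differed by little more than sampling noise (chi-square per degree of freedom 1.19 to 1.27), whereas 45 pairs of different libraries from 1 group were at 2.33 to 315. Of 29 samples in the labels 17 matched a library in treatment, siRNA target and number and set name, and the rest were not analysed here. The remaining library, whose name carries the letters VM, matched no label and counted as a replicate with no set. Total counts of 9657309 to 18039313 per library set the precision.

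Genes were filtered with filterByExpr of edgeR 4.0.16 in R 4.3.3 (minimum count 10; 99.9% of counts kept), scaled by TMM and tested with the quasi-likelihood test, with all libraries fitted together without covariates. Benjamini-Hochberg adjustment covered 13136 genes, and a gene was called under 0.05. Set letters and siRNA numbers were compared in fits with 1 level per group and letter or number. Standard errors came from the F statistic. The common biological coefficient of variation was 23.3%. The test was checked on simulated data with 200 changed genes. Levels are CPM on the TMM scale. Positions and exon lengths came from GENCODE version 44. DESeq2 1.42.0, other filters and scalings, subsets of sets and siRNAs, a block of the set label and leaving out each set or library were tried. Python 3.11.15, pandas 2.3.3, SciPy 1.17.1 and matplotlib 3.10.9 were used.

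The genes and lists were chosen with earlier results of these data known. Named were the 10 genes and SMARCA4, from each list up to 6 genes called with an absolute log2 fold change over 1, taken by size, and the 3 genes most correlated with each cluster gene. Named outside these rules, after their values were seen, were CASP4, BIRC2, TMEM123, MMP11 and KRT8, and, with SMARCA4 siRNA, SERPINE2, PLAT, ADAM33, ADAMTS1 and KRT18.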

Additional observations from a re-analysis of the deposited data

Results flagged for a closer look

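In 4 of 27 sets of 6 libraries (a gene in a group), the lowest library lay further from its nearest neighbour than Dixon's critical share of the range allows at 95%. Chance gives about 1 in 20 such sets. In DMSO_siNT the library 4-2V was lowest for MMP2 at 181 CPM (gap over range 0.716), for MMP14 at 284 CPM (0.638) and for TIMP2 at 704 CPM (0.655). Without it, MMP2 was at 860 ± 183 CPM, MMP14 at 892 ± 166 CPM and TIMP2 at 1514 ± 174 CPM (SD, n = 5). In 4OHT_siSMARCA4 the library 4-3V was lowest for MMP14 at 2009 CPM (0.663). A further 3 sets had a median count under 3 and were not examined. No difference in a response between siRNA numbers or set letters was called by edgeR among 30 tests of the 10 genes (5 at an unadjusted p under 0.05), and without DMSO_siNT 4-2V that of MMP10 between siRNA numbers was (adjusted p = 0.0489).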

How the results depend on the processing

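Of the log2 fold changes of single genes recomputed under the alternatives, 340 of 346 kept direction and call in 4OHT_siNT against DMSO_siNT, 319 of 347 in 4OHT_siSMARCA4 against 4OHT_siNT and 340 of 346 in 4OHT_siSMARCA4 against DMSO_siNT. MMP1, MMP3, MMP10, MMP12, MMP14, TIMP1 and TIMP3 kept both in the first comparison under every alternative run. The genes near the floor, MMP9, MMP10 and MMP12 in growing cells, are limited by depth. Where a value moved, the cause was not tested.

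The count of all genes called was 6935 in the first comparison, 2822 with a 2-fold requirement and 5633 to 7734 when leaving out sets or libraries. In the second it was 1397, with 595 at an adjusted p under 0.01, 461 with the 2-fold requirement, 2858 in VM sets, 4064 in VM sets and the unlabelled library, 3429 and 4 with siRNA 2 or 4 alone and 3405 with only the groups compared. It ranged from 432 to 3674 when leaving out sets or libraries, with 3269 without DMSO_siNT 4-2V, 931 without 4OHT_siSMARCA4 2-3VM and 923 without the unlabelled library. In the third it was 6635, with 2820 under the 2-fold requirement, 4119 with siRNA 4 alone and 5739 to 7850 when leaving out sets or libraries. Of the 10 genes, 9, 4 and 9 were called, with 8 to 9, 3 to 5 and 9 to 10 when leaving out sets or libraries. In the second comparison 2 of 7 testable genes were called with at least 10 counts in every library, 1 with siRNA 4 alone and 8 in VM sets with the unlabelled library, a setting added after seeing the data.

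Same-numbered sets were not shown to pair, since correlations of deviations from group means were −0.23 for 2V, −0.073 to −0.038 for 2VM and 0.15 to 0.27 for 3VM. With the set as a replicate block, 4258 and 243 genes were called in the first and second comparisons, and 8 and 3 of the 10 genes. The calls that ended were those of TIMP2 in the first (−0.54, adjusted p = 0.0804) and of TIMP3 in the second (−0.79, adjusted p = 0.0586).

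Directions turned for MMP2 with siRNA 2 alone in the first comparison (−0.0174). In the second they turned for MMP14 under the block (0.22), under the block without DMSO_siNT 4-2V (0.065) and with siRNA 2 alone (0.0494), and for MMP9 under the block (−1.56), under the block without 4-2V (−1.39), in VM sets (−1.18), in VM sets with the unlabelled library (−1.60) and with siRNA 2 alone (−0.11). Leaving out sets or libraries gave −0.24 to 0.70 for MMP9. The cluster difference was −7.66, −3.17 and −1.17 without MMP9, and the last of these turned sign. Between set letters and between siRNA numbers, 0 of the 10 genes were called by edgeR (2 and 2 at an unadjusted p under 0.05 in the groups by letters, 5, 3 and 1 by number) and 1 in each family without DMSO_siNT 4-2V.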
